A study of Mus musculus with 6 samples.

Results

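Zfp genes carry the mouse nomenclature for zinc finger proteins, and most of them encode C2H2 proteins, in which a zinc ion held by cysteines and histidines folds a short finger that reads DNA bases. Many hold a KRAB box, through which they recruit the corepressor TRIM28 (KAP1) and the histone methyltransferase SETDB1 to silence retroelements and to keep imprints, and many sit in tandem arrays of related genes. Others are widely expressed activators, RNA-binding proteins or ubiquitin ligases that share only the name. The genes described here were chosen by symbol, Zfp followed by digits alone, and selected on their measured level in untreated wild-type cells, at least 2 RPKM (reads scaled to gene length and library size). They numbered 230 of the 368 such symbols in a deposited table of 37224 genes. The remaining 138 were below the threshold, 37 of them between 1 and 2 RPKM, and 21 were listed at 0 in that library. Just inside the threshold were Zfp788 (2.04 RPKM), Zfp563 (2.05 RPKM) and Zfp438 (2.08 RPKM), and just outside it Zfp775 (1.97 RPKM), Zfp945 (1.96 RPKM) and Zfp748 (1.80 RPKM).

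RNA-seq was made from mouse embryonic fibroblasts, cells grown from embryonic connective tissue, on a C57BL/6 background. The 4 groups were Dot1L-/- cells with low-dose sodium arsenite for 24 h, Dot1L-/- cells untreated, wild-type cells with the same exposure and wild-type cells untreated, all grown in high glucose medium with serum. The exposure protocol lists 5 and 10 µM arsenite and does not say which was sequenced, and the labels describe the cells both as primary and as 2 cell lines. How the null cells were made is not given in the sources used here. Each group held 1 library, so every difference below is between libraries, without a replicate check and without a test. DOT1L methylates lysine 79 of histone H3, and Dot1l itself stood at 1.24 RPKM in null cells against 5.71 RPKM in wild type with arsenite, and at 9.59 against 30.4 RPKM untreated. Reads of Dot1l were left in both null libraries (128 with arsenite and 5402 untreated). A value over the whole gene cannot show which part was deleted, so it does not check the label, and null is used here as the labels' word.

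Depth recovered from the deposited values was 10833103 and 11879632 reads in the wild-type and null arsenite libraries, against 62972880 and 64699847 in their controls. The controls were thus 5.81 and 5.45 times deeper. Of 11 fibroblast markers, 8 reached 1 RPKM in some library, while Thy1 was listed at 0 in all 4. Markers of leukocytes (1 of 5), epithelium (1 of 4), endothelium (1 of 3), neural and glial cells (2 of 4), skeletal muscle (1 of 3) and pluripotent or germ cells (0 of 4) reached it less. The summed level of the fibroblast list ran from 2275 RPKM in untreated null cells to 12118 RPKM in null cells with arsenite. That of the neural list was 21.8 RPKM with arsenite against 77.8 RPKM in control in wild type, and 17.2 against 24.3 RPKM in the null. The part of these shifts in the results below was not tested, and in bulk RNA fewer cells of a type and less RNA per cell cannot be told apart.

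Most expressed Zfp genes, 194 of the 230, had a lower value in the arsenite than in the control library in both genotypes (84.3%, against 63.0% of other genes at 2 RPKM or more in untreated wild type and 58.0% of all genes tested). The wild-type control chose the genes, so this joint count is a description. In the null alone 196 were lower with arsenite (85.2%, against 70.4% of those other genes and 65.9% of all genes tested). The median Zfp level was 1.94 RPKM in wild-type cells with arsenite against 6.18 RPKM in their control, and 1.23 RPKM in Dot1L null cells with arsenite against 4.54 RPKM in theirs. Together the 230 genes took 0.307% of all reads with arsenite (33261 reads, exact 95% binomial interval 0.304 to 0.310%) against 0.856% in the wild-type control (538822 reads, 0.853 to 0.858%). In the null they took 0.229% with arsenite (27221 reads, 0.226 to 0.232%) against 0.725% (468992 reads, 0.723 to 0.727%). The wild-type control share is raised by the choice of the genes on that library, so these shares are a description. The intervals cover counting error only. With arsenite 112 of the genes stayed at 2 RPKM or more in wild type and 83 in the null, against 176 in the untreated null library, which the threshold did not use. No background is given for these counts, and 70.4% of other genes at that threshold were also lower with arsenite in the null.

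**Figure D1:**
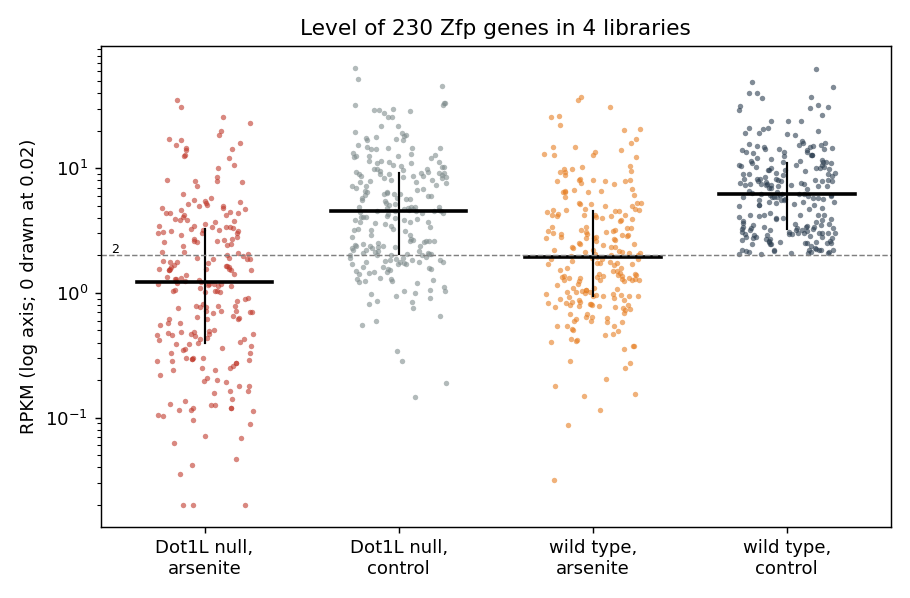
Level of each of the 230 Zfp genes in the 4 libraries, in RPKM on a log axis; each point is a gene, the thick line the median, the thin line the 25th to 75th percentile, and the dashed line the threshold of 2 RPKM in untreated wild type. Both arsenite libraries, with medians of 1.23 RPKM in the null and 1.94 RPKM in wild type, sit below their controls, with medians of 4.54 and 6.18 RPKM; 3 genes at 0 are drawn near the bottom.

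Fold changes were put on the scale log2((RPKM + 1)/(RPKM + 1)), arsenite over control, which understates the difference of low genes. A gene counts as higher or lower from a 2-fold difference on that scale. In wild type, 137 of the 230 Zfp genes were lower and 3 higher, with a median of −1.22. Over all 12588 genes tested (at least 1 RPKM in any library), 35.7% were lower and 12.8% higher, with a median of −0.56. Among the 9926 other genes at 2 RPKM or more in untreated wild type, 41.9% were lower and 12% higher (median −0.75). The threshold that chose the genes used this control library, so nothing is read from that contrast. Arsenite against control in the null used other libraries. There 138 of the 230 Zfp genes (60%) were lower and 9 higher, with a median of −1.15. Over all genes tested, 37.1% were lower and 15.2% higher, with a median of −0.53. Centred on the median of all genes tested, 75 Zfp genes were lower and 17 higher in the null (32.6% and 7.39%, against 23.8% and 23.4% of all genes tested and 28.2% and 20.1% of the other genes at 2 RPKM or more). In wild type the centred counts were 62 and 13 (26.96% and 5.65%, against 19.4% and 21.6% of all genes tested). Among the same 9926 other genes, 42.1% were lower and 12.8% higher in the null (median −0.72). The other genes in the same bins of length and of untreated wild-type RPKM (8897 genes, weighted to the number of Zfp genes in each bin) were 36.2% lower and 10.5% higher (median −0.57). Zfp genes in the null were thus lower more often, and higher less often, than each of these backgrounds. The same bins gave 38.4% lower and 8.45% higher in wild type (median −0.71).

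Many of the same genes passed 2-fold in both genotypes. The joint counts use the wild-type contrast, whose control library chose the genes, and are a description. Of the 230, 112 were at least 2-fold lower in both (48.7%, against 31.5% of the 9926 other genes), 25 in wild type and not in the null, 26 in the null and not in wild type, and 2 were higher in both. None was past 2-fold in opposite ways. The fold was above 0 in both genotypes for 19. No background is given for the joint counts other than that of genes lower in both, so nothing is read from them. Across the 230 genes, which are not independent replicates, the folds correlated with Pearson's r of 0.83 and Spearman's rho of 0.79, beside 0.80 and 0.77 over the other 9926 genes. The 2 comparisons have no library in common, but they have in common gene length, base composition and the gap in depth.

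**Figure D2:**
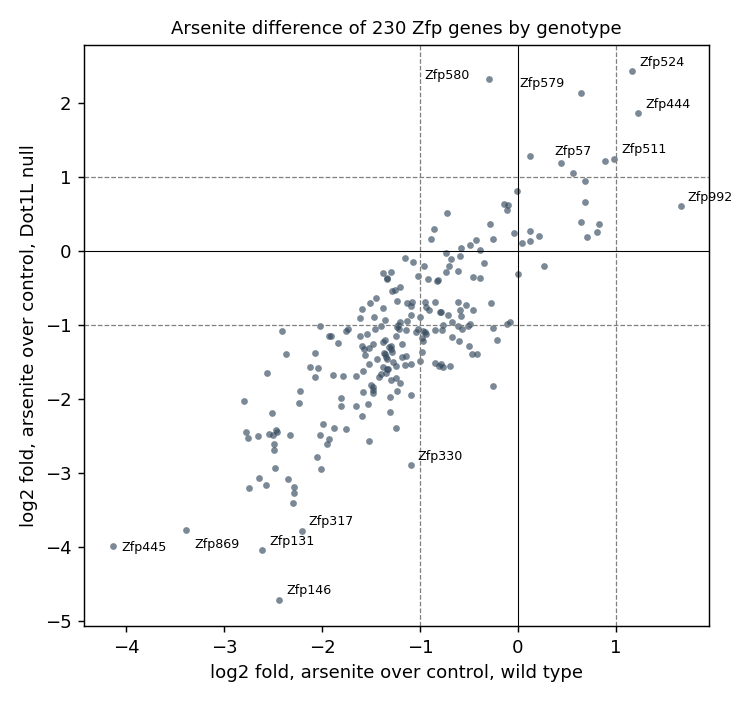
Log2 fold of arsenite over control for each of the 230 Zfp genes, in wild type (horizontal axis) and in Dot1L null cells (vertical axis); dashed lines mark 2-fold. The lower left corner holds the 112 genes lower in both genotypes, led by Zfp445 and Zfp869, and the upper right corner Zfp444 and Zfp524.

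Zfp445, a KRAB protein that guards imprinting control regions in mouse together with ZFP57, had the lowest log2 fold in wild type and the lowest shared by both genotypes. Zfp445 (ENSMUSG00000047036, chromosome 9, 122848910 to 122886851 in GRCm38) had 0.249 RPKM (8 reads) with arsenite against 21.0 RPKM (3910 reads) in the wild-type control, a level 84.1-fold lower (95% counting interval 42.6 to 195). In the null it had 0.199 RPKM (7 reads) against 17.95 RPKM (3439 reads), 90.2-fold lower (43.7 to 225). The 2 arsenite libraries were close to each other and far below both controls. Zfp869 followed, at 0.987 against 19.8 RPKM in wild type and 0.476 against 19.2 RPKM in the null, or 20.1-fold and 40.3-fold lower. Its near neighbour Zfp868 was at 2.87 against 7.27 RPKM and 3.03 against 14.6 RPKM.

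Zfp57, the partner of Zfp445 at imprints, went the other way. It had 15.9 RPKM with arsenite against 8.12 RPKM in the wild-type control, 1.96-fold higher (1.79 to 2.14), and 12.2 against 4.67 RPKM in the null, 2.61-fold higher (2.35 to 2.89). On the log2 scale with 1 RPKM added its folds were 0.89 and 1.22. Zfp568, which silences a placental promoter of the growth factor gene Igf2, was lower in both genotypes, at 1.26 against 7.32 RPKM in wild type and 0.293 against 5.77 RPKM in the null. Zfp809, which silences murine leukaemia proviruses, stood near its control in wild type (8.22 against 9.20 RPKM) and above it in the null (12.8 against 7.85 RPKM), short of 2-fold on the log2 scale in both. The 4 silencers with known targets therefore split, with 2 lower in both genotypes.

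The remaining lowest genes in wild type were Zfp647, Zfp970, Zfp971, Zfp965, Zfp251 and Zfp655. Zfp965, Zfp970 and Zfp971 lie within a few megabases of each other on chromosome 2, in arrays of near-identical copies where reads could be split between genes, so their values are uncertain. Zfp965 had 0.638 against 9.96 RPKM in wild type and 0.129 against 9.45 RPKM in the null. Zfp971 had 0.587 against 9.71 RPKM in wild type, and in the null it had no read with arsenite against 629 reads in control, which makes it at least 38.5-fold lower against a floor of 3 reads in the arsenite library. Zfp97 and Zfp758 also had no read there, against 261 and 391 reads in control. Under 20 reads were left for 25 of the 230 genes in the wild-type arsenite library and 64 in the null one, and for 0 in either control.

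On the log2 scale Zfp146 and Zfp131 were lowest in the null. Zfp146, a short protein made of zinc fingers alone, had 1.02 RPKM with arsenite against 52.0 RPKM in the null control, 51.1-fold lower (34.6 to 79.1), and 6.64 against 40.3 RPKM in wild type, 6.07-fold lower (5.16 to 7.19). Zfp131, which carries a BTB domain, had 0.631 against 26.0 RPKM in the null and 4.45 against 32.4 RPKM in wild type, 41.1-fold and 7.28-fold lower. Zfp317 showed the same order, 0.646 against 21.7 RPKM in the null and 1.16 against 8.99 RPKM in wild type. Zfp655 was lower by nearer amounts, at 3.11 against 33.6 RPKM and 2.45 against 20.5 RPKM.

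The 5 Zfp genes with the highest level in untreated wild type were Zfp598, Zfp106, Zfp330, Zfp146 and Zfp706, and they differed in how far they were lower with arsenite. Zfp598 encodes the ubiquitin ligase that marks collided ribosomes. It had 10.3 RPKM with arsenite against 62.0 RPKM in the wild-type control, 6.03-fold lower (5.44 to 6.71), and 3.36 against 32.2 RPKM in the null, 9.60-fold lower (8.07 to 11.5). Zfp106, an RNA-binding protein needed for motor neuron survival in mice, had 7.90 against 49.2 RPKM in wild type and 5.09 against 33.1 RPKM in the null, 6.22-fold and 6.52-fold lower. With the trend of the fold on gene length over all genes tested removed, its log2 folds were −0.93 and −0.85, short of 2-fold. Zfp330 was at 7.74 against 63.9 RPKM in the null and at 20.4 against 44.8 RPKM in wild type, so its null ratio was the larger. Zfp706, a small protein, was at 26.1 against 40.3 RPKM and 14.1 against 29.6 RPKM, past 2-fold on the log2 scale in the null alone.

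A list of 30 Zfp genes with a known role had 27 members here. Of these, 20 were lower and none higher in wild type (median −1.51), and 18 were lower and 1, Zfp57, was higher in the null (median −1.52). Of the other genes at 2 RPKM or more, 41.9% and 42.1% were lower. The trend of the fold on gene length over all genes tested was then removed. In wild type 3 of the 27 were lower and 1 higher (median −0.45), or 11.1% lower against 17.4% of the other genes. In the null 8 were lower and 2 higher (median −0.41), or 29.6% lower against 23.1%. With length removed the share of the list lower was thus under that of other genes in wild type and above it in the null. Its medians stayed below those of the other genes, which were −0.09 in wild type and −0.05 in the null. Zfp36 encodes tristetraprolin, a CCCH protein that speeds decay of mRNAs with AU-rich elements, and stood at 2.94 against 5.99 RPKM in wild type and 3.34 against 4.77 RPKM in the null, past 2-fold on the log2 scale in neither. Zfp622, a factor of large ribosomal subunit maturation, was among the least moved, at 35.4 against 29.3 RPKM and 25.9 against 29.98 RPKM. Zfp326, a splicing and elongation factor, was lower in both, at 2.08 against 7.26 RPKM and 0.886 against 5.14 RPKM, and at −0.19 and −0.41 on the log2 scale with the length trend removed. Zfp207, which loads the checkpoint protein BUB3 on kinetochores, was at 14.8 against 37.6 RPKM and 10.5 against 28.7 RPKM, and the ubiquitin ligase gene Zfp91 at 9.87 against 26.98 RPKM and 7.83 against 22.0 RPKM. Both were again lower in each genotype, though with the length trend removed neither passed 2-fold, with Zfp207 at −0.13 in wild type and −0.15 in the null and Zfp91 at 0.16 and 0.22.

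Other genes of the list act in transcription and chromatin. Zfp746 (PARIS), a repressor of the mitochondrial regulator Ppargc1a, had 3.99 against 19.1 RPKM in wild type and 3.27 against 31.9 RPKM in the null. Zfp148, Zfp292, Zfp335, Zfp384, Zfp217, Zfp318, Zfp462 and Zfp644, a partner of the H3K9 methyltransferase G9a, were likewise at least 2-fold lower in both genotypes. Their log2 folds ran from −2.37 (Zfp318) to −1.53 (Zfp384) in wild type and from −2.61 (Zfp148) to −1.29 (Zfp462) in the null. These are long genes, and with the length trend removed none of the 8 passed 2-fold in wild type (−0.98 for Zfp318 to −0.01 for Zfp462). In the null Zfp148 (−1.05) and Zfp335 (−1.09) still did, and Zfp318 (0.057) and Zfp462 (0.38) changed sign. Zfp281, Zfp687 and Zfp703 had log2 folds of −0.74, −0.70 and −0.54 in the null, against −1.09, −1.51 and −1.29 in wild type, where alone they passed 2-fold. Zfp143, an activator of snRNA and many other promoters, and Zfp410, which sustains Chd4 transcription, were lower past it in the null only (−1.56 and −1.52, against −0.69 and −0.79 in wild type). Zfp827 was level with its control in the null (3.74 against 3.82 RPKM) and at 3.34 against 6.25 RPKM in wild type. The differences between genotypes here were not tested.

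The few genes that were higher form a short list. Past 2-fold in wild type were Zfp992, Zfp444 and Zfp524, and in the null Zfp524, Zfp580, Zfp579, Zfp444, Zfp771, Zfp511, Zfp57, Zfp688 and Zfp954. Zfp444 had 14.8 RPKM with arsenite against 5.74 RPKM in the wild-type control, 2.57-fold higher (2.32 to 2.84), and 16.1 against 3.70 RPKM in the null, 4.34-fold higher (3.91 to 4.81). Zfp524 had 14.1 against 5.71 RPKM in wild type and 20.0 against 2.90 RPKM in the null, 2.46-fold and 6.91-fold higher. These were the 2 genes past 2-fold upward in both genotypes. Zfp511, at 37.3 against 18.5 RPKM and 31.1 against 12.5 RPKM, and Zfp57, given above, were next by their lower log2 fold of the 2 genotypes, and then Zfp637, at 17.2 against 10.3 RPKM and 17.1 against 8.38 RPKM. Zfp992 was the highest in wild type, at 12.3 against 3.21 RPKM, and stood at 1.52 against 0.659 RPKM in the null. Zfp428, Zfp593 and Zfp277 had log2 folds of 0.83, 0.80 and 0.71 in wild type and 0.37, 0.25 and 0.19 in the null.

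RefSeq promoter windows (GRCm38.p6, 250 bases before to 50 after a start) were found for 187 of the 230 genes, 230 windows in all. The windows of the 2 genes highest in both genotypes and of the 2 lowest in both, among those with a window, are shown so that opposite cases can be read side by side. Capitals mark letters of a searched motif on either strand, with no overlaps between motifs in these 4 windows.
Zfp444, higher, chr7:6172263-6172562, plus strand: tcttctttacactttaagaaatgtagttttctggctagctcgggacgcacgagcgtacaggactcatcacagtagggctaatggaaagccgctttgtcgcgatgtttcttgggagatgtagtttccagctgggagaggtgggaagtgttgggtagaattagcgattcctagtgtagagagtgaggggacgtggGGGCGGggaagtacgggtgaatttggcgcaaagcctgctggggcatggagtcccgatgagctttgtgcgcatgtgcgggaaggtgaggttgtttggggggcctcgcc
Zfp511, higher, chr7:140036141-140036440, plus strand: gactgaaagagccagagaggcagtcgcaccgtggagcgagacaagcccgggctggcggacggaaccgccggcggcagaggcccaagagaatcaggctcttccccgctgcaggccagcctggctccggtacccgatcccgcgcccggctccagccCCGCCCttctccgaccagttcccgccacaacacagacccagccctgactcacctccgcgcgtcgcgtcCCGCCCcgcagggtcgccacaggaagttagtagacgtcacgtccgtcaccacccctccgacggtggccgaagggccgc
Zfp445, lower, chr9:122865957-122866256, minus strand: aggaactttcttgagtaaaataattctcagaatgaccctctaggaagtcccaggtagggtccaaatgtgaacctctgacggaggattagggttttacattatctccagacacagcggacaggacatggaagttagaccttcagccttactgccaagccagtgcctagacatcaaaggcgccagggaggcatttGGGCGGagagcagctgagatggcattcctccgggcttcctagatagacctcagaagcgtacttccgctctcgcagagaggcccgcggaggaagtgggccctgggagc
Zfp869, lower, chr8:69716853-69717152, minus strand: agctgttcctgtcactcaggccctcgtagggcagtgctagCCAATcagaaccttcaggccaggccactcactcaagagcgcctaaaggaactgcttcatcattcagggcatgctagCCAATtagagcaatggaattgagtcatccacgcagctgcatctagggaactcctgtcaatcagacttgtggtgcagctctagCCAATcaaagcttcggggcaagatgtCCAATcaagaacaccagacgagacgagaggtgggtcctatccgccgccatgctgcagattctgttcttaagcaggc

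The higher Zfp444 and the lower Zfp445 each held 1 GC box (GGGCGG), Zfp511 held 2, and Zfp869 held 4 CCAAT boxes (CCAAT) and no GC box. They had 16, 10, 33 and 8 CG dinucleotides. Over all Zfp windows, GC boxes stood in 47.8%, against 66.5% of the 9814 windows of other genes at 2 RPKM or more in untreated wild type and 35.7% of all 32851 windows. CCAAT boxes stood in 48.7% against 37.9% and 37.4%, TATAAA in 6.09% against 6.64% and 13.6%, and the ETS core CCGGAAG in 21.7% against 19.3% and 8.86%. The antioxidant response core TGACNNNGC was in 15.7%, against 14.3% and 12.4%. The median number of CG dinucleotides was 16 in Zfp windows, against 22 in those of other expressed genes and 7 in all. Windows of the Zfp genes lower in both genotypes (109 windows) held GC boxes in 56.0% and CCAAT boxes in 40.4%. Those of Zfp genes within 2-fold in both (63 windows) held them in 34.9% and 55.6%, and those of Zfp genes above 0 in both (17 windows) in 41.2% and 35.3%.

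By gene length, the Zfp genes stood apart from other genes mainly below 4000 bases, and most under 2000 bases. Folds in these libraries follow length, with shorter genes higher with arsenite. The Zfp genes, of 816 to 19195 bases and a median of 3716, followed it less. In the null the 33 Zfp genes under 2000 bases had a median log2 fold of −0.98, while the 2010 other genes of that length stood at 0.47, with 48.5% of these Zfp genes lower against 15.97% of the other genes. The wild-type medians, whose control library chose the genes, were −0.83 and 0.56 and are given as a description. From 2000 to under 4000 bases the null medians were −1.05 for 94 Zfp genes and −0.53 for 3429 other genes, with 56.4% and 35.8% lower. From 4000 to under 6000 bases the null medians were −1.10 (59 genes) and −1.07 (2241 genes), and from 6000 bases −1.57 (44 genes) and −1.46 (2071 genes). The shares lower differed more than these medians, at 59.3% of Zfp against 52.3% of other genes, and 77.3% against 65.8% from 6000 bases. The slope per doubling of length was −0.29 among Zfp genes and −0.69 among the other genes in the null, and −0.28 and −0.72 in wild type. In the null 16 of these 33 were lower, 5 higher and 12 neither. Zfp965, Zfp869, Zfp647, Zfp930 and Zfp935 lay below the 25th percentile of the Zfp genes in wild type (−1.60). All but Zfp935 lay below that of the null (−1.70). In wild type and null the log2 folds were −2.29 and −3.19 for Zfp930 and −2.56 and −1.64 for Zfp935. Zfp511, Zfp524, Zfp428 and Zfp771 were among those above 0 in both genotypes.

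**Figure D3:**
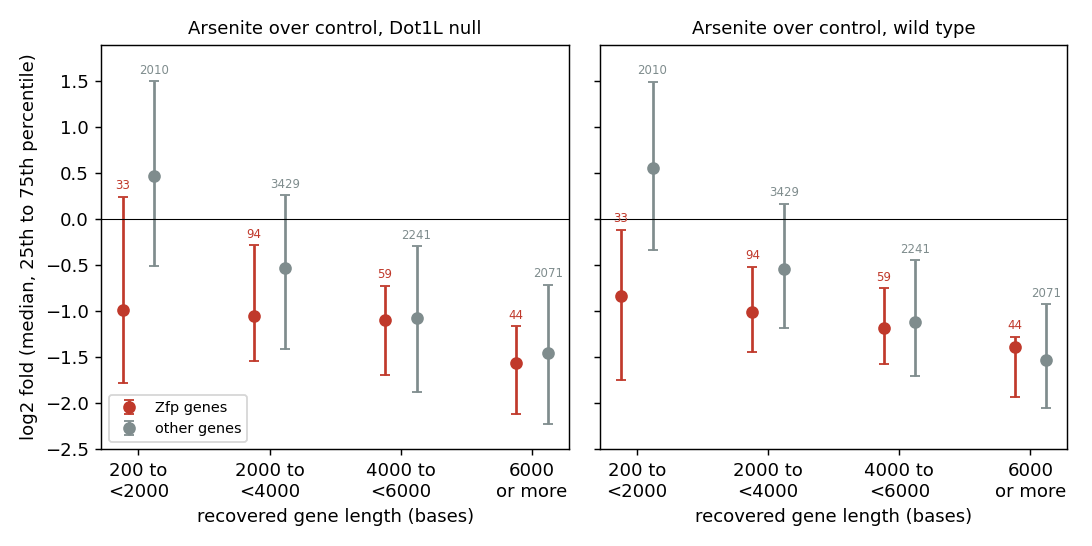
Median log2 fold of arsenite over control (points) with the 25th to 75th percentile (bars), by recovered gene length, for the Zfp genes and for other genes at 2 RPKM or more in untreated wild type; numbers give the genes in each bin, and Dot1L null cells are on the left. Below 2000 bases the Zfp medians of −0.98 (null) and −0.83 (wild type) lie under 0 while those of other genes, 0.47 and 0.56, lie above it, and from 4000 bases the medians of the sets lie close together.

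The length trend removed here and above was a straight line fitted over all genes tested. Its slope per doubling was −0.63 in wild type and −0.66 in the null, steeper than among the Zfp genes. Values with it removed are therefore relative to all genes, not to the Zfp genes' own trend. With it removed the Zfp medians were −0.45 in wild type and −0.45 in the null, beside −0.09 and −0.05 for the other genes at 2 RPKM or more. In that setting 55 Zfp genes were lower and 5 higher in wild type (23.9% and 2.17%, against 17.4% and 15.4% of the other genes), and 62 lower and 15 higher in the null (26.96% and 6.52%, against 23.1% and 18.6% of the other genes). The fold also varied with level. In the null, Zfp genes from 2 to under 5 RPKM in untreated wild type had a median of −0.95 (91 genes, other genes −0.44), those from 5 to under 10 RPKM −1.26 (73 genes, other genes −0.79), and those from 10 RPKM −1.56 (66 genes, other genes −0.84). The added 1 RPKM shrinks folds most at low levels. Without it the median ratio of RPKM was −1.62 on the log2 scale in wild type and −1.91 in the null over the 227 genes above 0.

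Position was looked at next, since Zfp genes lie in tandem. Chromosome 7 held 56 of the 230 and chromosome 17 held 32. Runs of at least 3 annotated Zfp genes with starts under 200 kb apart held 100 of the 230, and 130 lay outside them. The genes in runs had medians of −1.15 in wild type and −1.06 in the null (58 lower and 7 higher in the null), and those outside −1.24 and −1.24 (80 lower and 2 higher). In the null these are 58% lower and 7% higher in runs, and 61.5% and 1.54% outside. Of the other genes at 2 RPKM or more in untreated wild type, 42.1% were lower and 12.8% higher there. In 16 runs at least 3 of the 230 genes were present. The largest, on chromosome 17 from 21383707 to 22456689, held 14 of them, of which 10 were lower in wild type and 10 in the null, and none was higher. A run on chromosome 7 from 29768552 to 30169775, with Zfp146, Zfp566 and Zfp568, held 10, of which 6 were lower in wild type and 9 in the null. The wild-type values of the runs use the control library that chose the genes and are a description. Neighbours in such arrays have similar sequences, so their reads may be shared and their values are not independent.

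One run on chromosome 7, from 4915181 to 5053723, stood apart from the other runs. It was singled out after its values were seen. All its 6 annotated genes were expressed, and its median was −0.51 in wild type and 1.33 in the null, the only run with a null median above 0. Zfp579 had 15.4 RPKM with arsenite against 2.73 RPKM in the null control, 5.65-fold higher (5.10 to 6.27), and 7.88 against 4.68 RPKM in wild type. Zfp580 had 12.5 against 1.71 RPKM in the null, 7.32-fold higher (5.76 to 9.33), and 9.47 against 11.9 RPKM in wild type. Zfp524, given above, lies between them, and Zfp784 was at 1.92 against 1.03 RPKM in the null and 1.59 against 3.27 RPKM in wild type. The annotated start of Zfp580 is next to the end of Zfp784, so reads of the pair may be hard to assign. The other two genes of the run were lower: Zfp628 at 3.20 against 7.69 RPKM in the null and 3.14 against 12.8 RPKM in wild type, and Zfp865 at 3.46 against 8.92 RPKM and 3.38 against 15.7 RPKM. A second run on chromosome 7, from 127233061 to 127615785, was also split, with Zfp771 (1.28 in the null) and Zfp688 (1.19) higher and Zfp768 (−1.65), Zfp553 (−1.60) and Zfp689 (−1.04) lower.

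**Figure D4:**
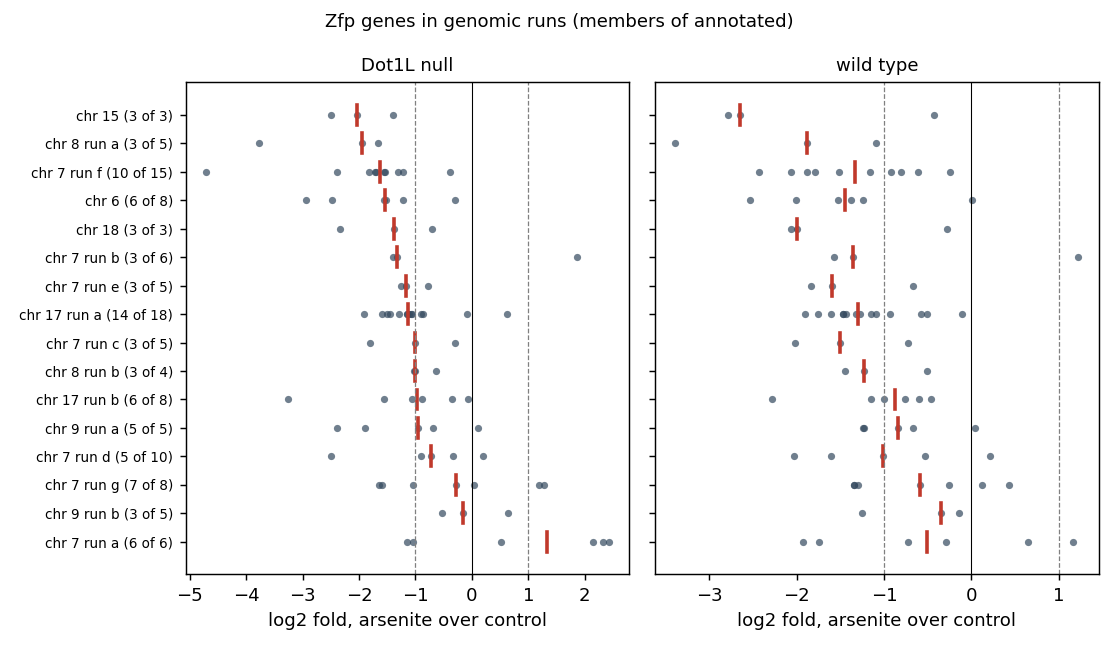
Log2 fold of arsenite over control for the Zfp genes of each of the 16 genomic runs with at least 3 expressed members, in Dot1L null cells (left) and wild type (right); points are genes, red lines run medians, and labels give expressed of annotated genes. Run a of chromosome 7, in the bottom row, is the only one with a null median above 0 (1.33), with 3 genes past 2-fold upward.

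Other families named for zinc-binding domains were set beside the Zfp genes at the same threshold of 2 RPKM in untreated wild type. Zbtb genes, which join a BTB domain to C2H2 fingers, had 19 of 28 members lower and 1 higher in the null (median −1.40), and 21 lower and 1 higher in wild type (median −1.33). The exception was Zbtb11, at 267 against 49.7 RPKM in wild type and 251 against 75.2 RPKM in the null. Zkscan and Zscan genes, with SCAN domains, were lower in 7 of 13 cases in the null (median −1.02) and 6 in wild type (median −0.76), led by Zscan25 at 0.548 against 23.8 RPKM in the null. CCCH genes of the Zc3h family, which bind RNA, were lower in 9 of 15 cases in the null (median −1.32) and 6 in wild type (median −0.86). RING finger genes, most of them ubiquitin ligases, had 32 of 53 members lower and 3 higher in the null (median −1.22), and 28 lower and 1 higher in wild type (median −1.12). Zdhhc palmitoyltransferases had a median of −0.47 in the null (6 of 17 lower, 1 higher) and −0.51 in wild type (8 lower, 1 higher). The Zfp share of 60% lower in the null was thus close to that of the RING finger genes, at 60.4%. Of the other genes at 2 RPKM or more, 42.1% were lower in the null and 41.9% in wild type. In wild type the shares of Zkscan and Zscan (46.2%), Zc3h (40%) and Zdhhc (47.1%) were near that background. Those of Zbtb (75%) and Rnf (52.8%) were above it. In the null only Zdhhc (35.3%) was under its background. With the length trend removed the null medians were −0.47 for Zbtb, −0.24 for Zkscan and Zscan, −0.94 for Zc3h, −0.43 for Rnf and 0.40 for Zdhhc, so only the last changed sign. The other genes at 2 RPKM or more had a median of −0.05 in that setting. Relative to the median of all genes (−0.53 in the null), Zdhhc genes also stood above it.

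Of 23 genes of the corepressor machinery that KRAB proteins use, all passed the threshold, 14 were lower and none higher in the null (median −1.10), and 9 were lower in wild type (median −0.76). These are 60.9% in the null, against 42.1% of the other genes at 2 RPKM or more, and 39.1% in wild type, against 41.9%. The wild-type list was thus near that background. Trim28, the shared corepressor, was at 85.3 against 143 RPKM in wild type and 82.1 against 123 RPKM in the null, within 2-fold in both. Setdb1, its H3K9 methyltransferase partner, was at 2.69 against 15.5 RPKM and 0.454 against 10.3 RPKM. The chromatin remodeler gene Atrx (0.839 against 11.5 RPKM, and 0.471 against 15.2 RPKM), Morc3 (0.817 against 13.2 RPKM, and 0.463 against 12.3 RPKM) and Smarcad1 (3.31 against 12.1 RPKM, and 1.77 against 12.4 RPKM) were lower in both. Uhrf1 (21.9 against 14.2 RPKM) and Ehmt2 (44.6 against 42.9 RPKM) stood above control in the null, and Hdac2 (30.4 against 18.6 RPKM) in wild type. With the length trend removed the list had a median of −0.04 in wild type (1 lower, 1 higher) and −0.41 in the null (6 lower, 2 higher). The shares lower were then 4.35% in wild type and 26.1% in the null, against 17.4% and 23.1% of the other genes.

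**Figure D5:**
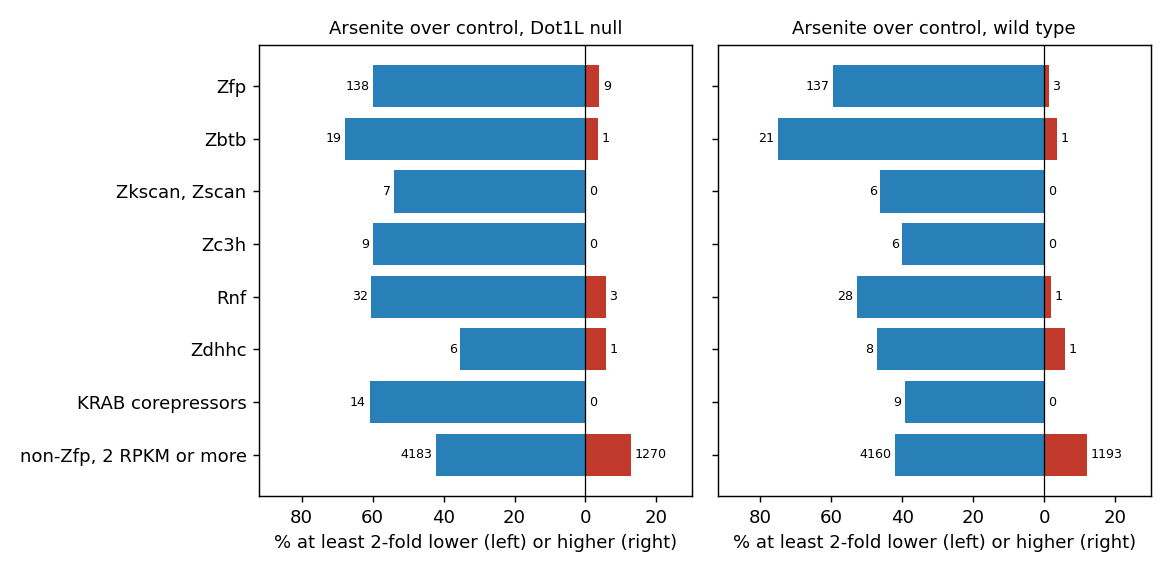
Share of genes at least 2-fold lower (blue, to the left) or higher (red, to the right) with arsenite over control, in Dot1L null cells (left) and wild type (right), for Zfp genes, other zinc-binding families, KRAB corepressor genes and other genes, all at 2 RPKM or more in untreated wild type; numbers at the bar ends are counts of genes. In the null, Zfp (138 of 230) and Rnf (32 of 53) genes have similar shares lower, both above the 42.1% of other genes.

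Fewer Zfp genes passed 2-fold between genotypes than between arsenite and control. Untreated, 31 of the 230 were lower and 3 higher in the null than in wild type, with a median log2 fold of −0.38. Over all genes tested the shares were 14.7% lower and 6.45% higher and the median −0.17. The other genes at 2 RPKM or more were 16.9% lower and 3.87% higher (median −0.23). The rule used the wild-type library of this contrast, so these counts are a description. Under arsenite, 26 were lower and 1 higher in the null than in wild type (11.3% and 0.435%), against 16.9% and 8.75% of all genes tested, with medians of −0.37 and −0.28. The other genes at 2 RPKM or more were 18.8% lower and 4.68% higher, with a median of −0.37. Other genes in the same bins of length and RPKM were 15.5% lower and 5.44% higher (median −0.32). The Zfp shares were below each of these backgrounds in both directions, on the scale with 1 RPKM added. That scale shrinks folds of low genes, and the Zfp medians were 1.23 and 1.94 RPKM in these libraries. With 0.1 RPKM added more Zfp genes were lower, and no background is given for that setting. Centred on the median of all genes tested, 14 Zfp genes were lower and 5 higher (6.09% and 2.17%, against 9.64% and 12.8% of all genes tested). In that contrast 78 of the 230 had a counting interval of the ratio that included 1, so depth limits what it can show. The genotype comparisons use the same libraries as the arsenite comparisons and are not separate evidence.

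Zfp469, Zfp580, Zfp521, Zfp3 and Zfp820 were lowest in untreated null against wild-type cells. Zfp469, whose human counterpart is altered in brittle cornea syndrome, had 2.09 RPKM in null against 14.5 RPKM in wild-type controls, 6.94-fold lower (6.26 to 7.71), and 0.465 against 1.92 RPKM under arsenite. Zfp521, which holds back adipocyte commitment, had 0.342 against 3.58 RPKM untreated and 0.0958 against 0.765 RPKM under arsenite. Zfp3 (0.285 against 3.27 RPKM) and Zfp820 (0.188 against 2.94 RPKM) were near 0 in the untreated null. Zfp703 was 3.17-fold lower in untreated null cells, at 7.61 against 24.1 RPKM.

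The 3 genes higher past 2-fold in the untreated null were Zfp503, Zfp365 and Zfp317. Zfp503, a developmental repressor, had 16.8 RPKM in null against 4.09 RPKM in wild-type controls, 4.10-fold higher (3.84 to 4.39), and 2.94 against 1.05 RPKM under arsenite. Zfp365 had 8.38 against 2.46 RPKM untreated and 4.79 against 1.26 RPKM under arsenite, 3.41-fold and 3.80-fold higher, and on the log2 scale was the only gene of the 230 past 2-fold upward under arsenite. Zfp142 (12.8 against 6.15 RPKM) and Zfp868 (14.6 against 7.27 RPKM) came next untreated, short of 2-fold on the log2 scale. Under arsenite Zfp579, Zfp771 and Zfp263 followed, with log2 folds of 0.89, 0.82 and 0.74. The lowest in null against wild-type cells under arsenite were Zfp992 (1.52 against 12.3 RPKM), Zfp7 (1.76 against 9.90 RPKM), Zfp948 (0.612 against 5.23 RPKM), Zfp146 and Zfp131.

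Subtracting the wild-type from the null arsenite fold, with 1 RPKM added, gave values centred near 0 for Zfp genes. Their median was −0.01, with 12 genes at 1 or more and 9 at −1 or less, against 12.1% and 12.8% of all genes tested (median −0.06) and 11% and 13% of the other genes at 2 RPKM or more. These are 5.22% and 3.91% of the Zfp genes. Of other genes in the same bins of length and RPKM, 11.2% were at 1 or more and 9.11% at −1 or less (median −0.01). The most positive were Zfp580 (2.61), Zfp579 (1.49), Zfp469 (1.33), Zfp524 (1.27) and Zfp784 (1.24), and 4 of these 5 lie in the run of chromosome 7 described above. The most negative were Zfp146 (−2.28), Zfp330 (−1.80), Zfp566 (−1.58), Zfp317 (−1.58) and Zfp131 (−1.43). Zfp566 had 1.09 against 6.43 RPKM in the null and 5.02 against 6.16 RPKM in wild type. With 0.1 RPKM added the Zfp median was further below 0 and more Zfp genes passed in both directions. The centring and the counts above thus hold for 1 RPKM added. None of the differences between genotypes was tested against replicate error.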

How the data were processed

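The authors deposited RPKM values for 37224 Ensembl gene IDs in 4 RNA-seq libraries, 1 per group. TopHat, HTSeq, Bowtie and deepTools and the mouse build mm10 are named in the submitters' processing notes, without versions or roles, and no source used here gives the annotation, gene lengths or strand setting. Removal of ribosomal RNA and strand-specific libraries are described per the labels' protocols, whereas the molecule label reads polyA RNA, which leaves the selection unsettled. The 2 H3K27ac ChIP-seq libraries were not analysed here.

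Symbols were found for 35449 IDs. All 230 genes had a position in the RefSeq annotation of GRCm38 (mm10). Library totals, gene lengths and reads were recovered from the whole-read steps of the RPKM values: the most frequent read total implied by small RNA genes, then the shortest length that gave whole reads within a relative tolerance of 1e-12. A length was found for all 21617 genes above 0. Of 503 small RNA genes with reads, 348 had a length equal to their annotated span and in 389 the span was a whole multiple of the length. A recovered length, and the reads with it, can be too small by a whole factor, and lengths under 200 bases were left out of work on length. No count model was run.

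With 1 library a group no test was made. Ratios carry exact conditional 95% intervals of the reads, which cover counting error only and treat reads as independent molecules. Genes were named as the 8 highest and 8 lowest for arsenite in wild type, the 5 at each end of the other contrasts and of the shared difference, the 5 highest levels, those nearest the threshold and a list of known roles; neighbours in runs, genes past 2-fold upward, short genes and the examples of other families were added after values were seen. The members and lists were chosen with earlier results of these data known. No protein sequences were used here, so a planned split by number of fingers and by KRAB or SCAN domain was not made. Python 3.11.15, numpy 2.4.6, pandas 2.3.3, scipy 1.17.1 and matplotlib 3.10.9 were used, and the scripts were tested on simulated data.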

Additional observations from a re-analysis of the deposited data

Results flagged for a closer look

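For 4 Zfp genes the arsenite effect had opposite signs in the 2 genotypes, and the effects differed by more than 1 on the log2 scale with 1 RPKM added. With 1 library a group, none of these differences was tested. No background is given for this count. The wild-type effect uses the control library that chose the genes, so the count is a description.

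Zfp580 had 12.5 RPKM with arsenite against 1.71 RPKM in control in Dot1L null cells, and 9.47 against 11.9 RPKM in wild type. Its log2 folds were 2.32 and −0.30, which differ by 2.61. The low value was that of the untreated null library, with 122 reads. The other three values lay between 9.47 and 12.5 RPKM.

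Zfp784, its neighbour on chromosome 7, had 1.92 RPKM with arsenite against 1.03 RPKM in control in the null, and 1.59 against 3.27 RPKM in wild type, a difference of 1.24. Zfp672 had 3.42 against 2.60 RPKM in the null and 1.69 against 3.87 RPKM in wild type, a difference of 1.15. Zfp950 had 1.56 against 1.29 RPKM in the null and 2.44 against 5.36 RPKM in wild type, a difference of 1.05. For these 3 genes the untreated wild-type library held the highest value of the 4.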

How the results depend on the processing

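No paired analysis was possible because each group held 1 library. Each summary of the 230 Zfp genes was recomputed under 9 alternatives, giving 135 values. A median counts as moved when it left the 95% order-statistic interval of the reported median over genes, and a count when it changed by more than 1.5 times. By these limits 84 did not move, 51 did, and 0 medians moved across 0 (that of the difference of effects, reported as −0.01, was 0.02 with the length trend removed and 0.0064 at 1 RPKM or more, inside its interval). Thinning the controls to the arsenite depth and dropping the filter on low values moved none. The cause of the other moves was not tested.

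For arsenite in wild type the median was −1.53 with 0.1 RPKM added, −0.66 centred on all genes, −0.82 scaled to the 75th percentile, −0.45 with the length trend removed and −1.35 for Zfp genes at 5 RPKM or more. Genes lower and higher were 62 and 13 centred, 87 and 12 at the 75th percentile, and 55 and 5 with the length trend removed. In the null the median was −1.79 with 0.1 RPKM added, −0.62 centred, −0.80 at the 75th percentile, −0.45 with the length trend removed, −1.39 at 5 RPKM or more and −1.35 for genes chosen on a mean of 2 RPKM over the libraries. Genes lower were 75 centred and 62 with the length trend removed, and genes higher 17 centred, 14 at the 75th percentile and 15 with the length trend removed.

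For null against wild type untreated, the median was −0.48 with 0.1 RPKM added, −0.21 centred, −0.27 at the 75th percentile and −0.18 with the length trend removed. Genes lower were 50 with 0.1 RPKM added, 19 with the length trend removed and 19 at 5 RPKM or more. Genes higher were 5 centred, 5 at the 75th percentile, 7 with the length trend removed, 5 at 1 RPKM or more and 1 at 5 RPKM or more. Under arsenite the median was −0.58 with 0.1 RPKM added, −0.086 centred, −0.21 at the 75th percentile and −0.12 with the length trend removed. Genes lower were 68 with 0.1 RPKM added, 14 centred and 16 with the length trend removed. Genes higher were 2 with 0.1 RPKM added, 5 centred, 4 at the 75th percentile, 3 with the length trend removed, 2 at 1 RPKM or more and 0 at 5 RPKM or more. For the difference of effects, 0.1 RPKM gave a median of −0.19 with 46 lower and 19 higher, and 5 RPKM or more gave 7 higher.

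Of 130 arsenite folds of named genes, 19 changed sign with the length trend removed, 10 when centred, 8 at the 75th percentile, 2 with thinned controls and 0 with 0.1 RPKM added. Among the 89 past 2-fold, 5 changed sign, all with the length trend removed: Zfp142 (0.11 in wild type), Zfp318 (0.057 in the null), Zfp91 (0.16 in wild type, 0.22 in the null) and Zfp462 (0.38 in the null). Depth limits the arsenite libraries most, where a gene at 0 reads may lie anywhere below 3 reads.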

Other observations

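Among the 138 Zfp symbols below the threshold, 16 were listed at 0 in all 4 libraries and 51 reached 1 RPKM in some library. The level was 2 RPKM or more in another library for 9 of them. Zfp42 (REX1), a marker of pluripotent cells, was listed at 0 in all 4. Zfp423, a regulator of adipocyte commitment, stood at 0.0150 RPKM with arsenite against 0.193 RPKM in control in the null, and was listed at 0 with arsenite against 0.0113 RPKM in wild type. Zfp750, an epidermal differentiation factor, stood at 0.0260 against 0.163 RPKM in the null, and was listed at 0 with arsenite against 0.00491 RPKM in wild type.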
